A study of Populus tremula x Populus alba with 6 samples.

Results

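Transposable element (TE) loci that gave extrachromosomal circular DNA were compared between drought-rewatered and control shoot apical meristems of poplar carrying the RNAi ddm1 line 15 construct. The loci were all those in the 2 lists deposited for this line. They were matched between the lists by identical chromosome, start and end. The control list held 169 loci and the drought list 79, making 218 different loci of the 436 in the whole series of 6 libraries. The plants belonged to clone 717-1B4 of the hybrid Populus tremula x Populus alba, and both groups carried the RNAi construct. The first group was kept under control watering, and the second was exposed to drought and then watered again. Each group was a single library, so no value has a replicate, and no test of the watering was possible. Watering, library size and any other difference between these libraries cannot be told apart. The sources used here do not give the number of plants behind a library, plant age, the strength and length of the drought, or the level of ddm1 left by the RNAi. The assay reads DNA, so neither the tissue label nor the RNAi could be checked against a marker gene.

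DDM1 is a chromatin remodeller, best known from Arabidopsis, that lets DNA methylation reach TEs packed in heterochromatin and so keeps them silent. Long terminal repeat (LTR) retrotransposons, the Gypsy and Copia superfamilies, copy themselves through RNA into linear DNA in the cytoplasm. Part of that DNA can be closed into circles before it is inserted, and mobilome-seq amplifies such circles before sequencing. LINE and SINE elements are copied from RNA directly at the insertion site, DNA transposons are cut out and moved, and Helitrons are known for a rolling-circle mechanism.

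Each locus carried a depth value and a split-read value, headed cov DOC and cov SR. The abbreviations are not spelled out. DOC is taken to mean depth of coverage, and SR to mean split reads, which can cross the closure of a circle. Both were whole numbers, no scaling is stated, and each had a companion fraction of the locus covered. The summed depth value was 69585 over the control list and 50114 over the drought list, which is not a sequencing depth, because only selected loci were listed. In control the lowest listed depth value was 4 and the lowest split-read value 3, and in drought both minima were 3. The lowest fraction covered by depth was 0.801 in control and 0.802 in drought. The sources used here give no threshold for listing, so a locus missing from a list is called unlisted. Nor do they say how reads that match several copies of a family were placed, and values of near-identical copies are therefore uncertain.

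Listed loci were fewer after drought, and most were different loci from those under control watering. The control list had a 95% Poisson interval of 144 to 196 loci and the drought list 62.5 to 98.5. Of the 169 control loci, 139 (82.2%) were unlisted in drought. Of the 79 drought loci, 49 (62%) were unlisted in control. The same counts in the other genotypes were 111 of 149 (74.5%) and 77 of 115 (67%) in WT, and 94 of 109 (86.2%) and 29 of 44 (65.9%) in the other RNAi line, 23. The loci in both lists numbered 30, which is 17.8% of the control list (exact 95% interval 12.3 to 24.4) and 38.0% of the drought list (27.3 to 49.6). No locus of one list overlapped a locus of the other with different ends, and the family names of all 30 matched loci were identical. Counting error is all that such intervals cover, because circles were amplified and are not independent molecules.

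**Figure D1:**
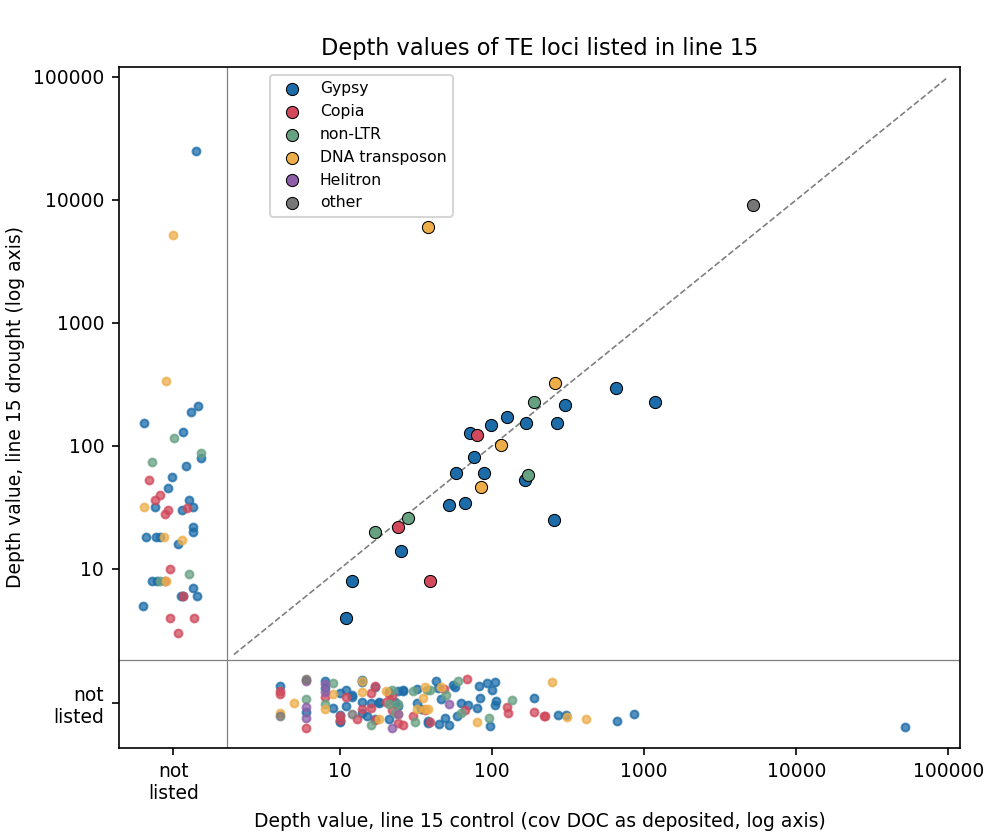
Each point is 1 of the 218 line 15 loci, coloured by TE class, with the depth value as deposited in control (x, log axis) and in drought (y, log axis). The 139 loci listed only in control lie in the bottom strip and the 49 listed only in drought in the left strip, spread at random across the strip. The 30 loci in both lie in the main panel, where the dashed line marks equal values, and 22 of them are within 2-fold. A DNA transposon locus at 38 and 6033 lies farthest from the line, followed by a Gypsy locus at 255 and 25.

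Loci found in both lists were longer and had higher values than loci found in one. Their median length was 517.5 bp (order-statistic 95% interval 260 to 612), against 235 bp (196 to 289) for loci listed only in control and 207 bp (167 to 302) for loci listed only in drought. Their median depth value was 86 in control and 70.5 in drought, against 24 at control-only loci and 28 at drought-only loci. The share of control loci also listed in drought was 5.08% (3 of 59) at depth values under 20, 17.9% (14 of 78) from 20 to 99, and 40.6% (13 of 32) at 100 or more. By length, it was 10.4% (7 of 67) under 200 bp, 14% (7 of 50) from 200 bp to under 500 bp, and 30.8% (16 of 52) from 500 bp. Many of the unmatched loci were thus short and near the lowest listed values. Even so, 19 of the 32 control loci with a depth value of 100 or more were unlisted in drought.

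**Figure D2:**
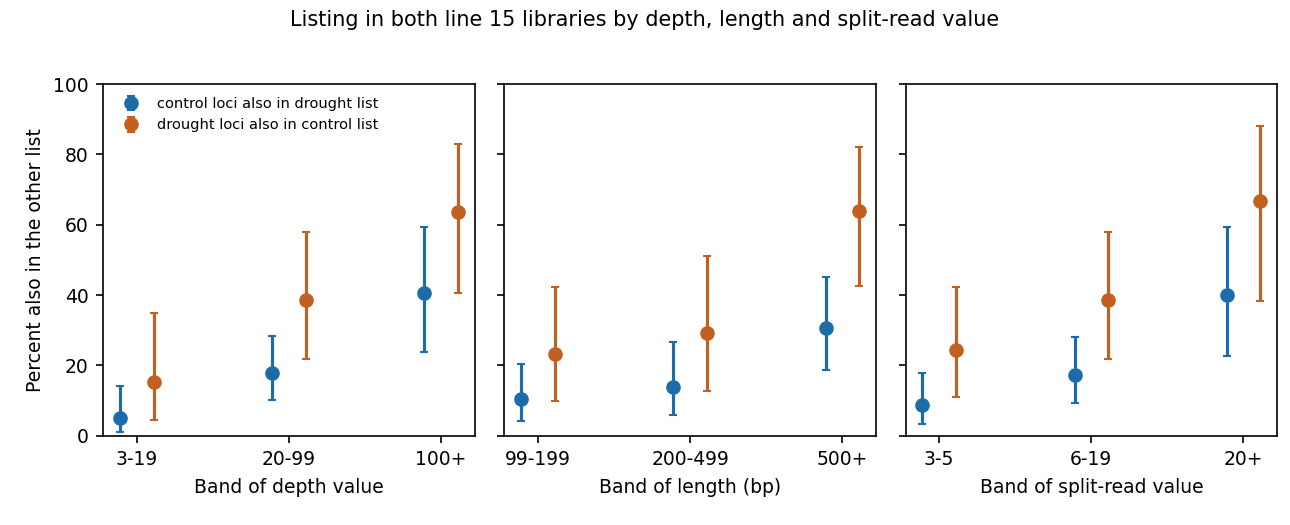
Percent of loci that were also in the other line 15 list, by band of depth value (left), locus length in bp (middle) and split-read value (right), for the control list (blue) and the drought list (orange). Points are shares and bars exact 95% Clopper-Pearson intervals, and the shares for the drought list run from 15.4% at a depth value under 20 to 63.6% at 100 or more.

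Gypsy elements were the most frequent class in both lists. They made up 79 of 169 loci in control (46.7%, exact 95% interval 39.0 to 54.6) and 44 of 79 in drought (55.7%, 44.1 to 66.9), so the intervals overlapped. Copia made up 33 (19.5%, 13.8 to 26.3) and 15 (19%, 11 to 29.4). DNA transposons made up 24 and 10 loci, and the LINE and SINE elements 21 and 9. The class called other, 4 and 1 loci, held the names SAT-1_PT, GA-rich and CT-rich, which belong to none of the TE classes used here. Helitrons were listed at 8 control loci and at none of the 79 drought loci, which allows a share of up to 3.8% of listed loci by the limit of 3 counts and 4.56% by the exact 95% interval. Of all control loci, 82.2% were unlisted in drought. The drought lists of the other genotypes held Helitrons, at 6 of 115 loci in WT and 2 of 44 in line 23. The class makeup of the lists was thus alike within counting error for Gypsy and Copia, while the individual loci mostly differed.

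**Figure D3:**
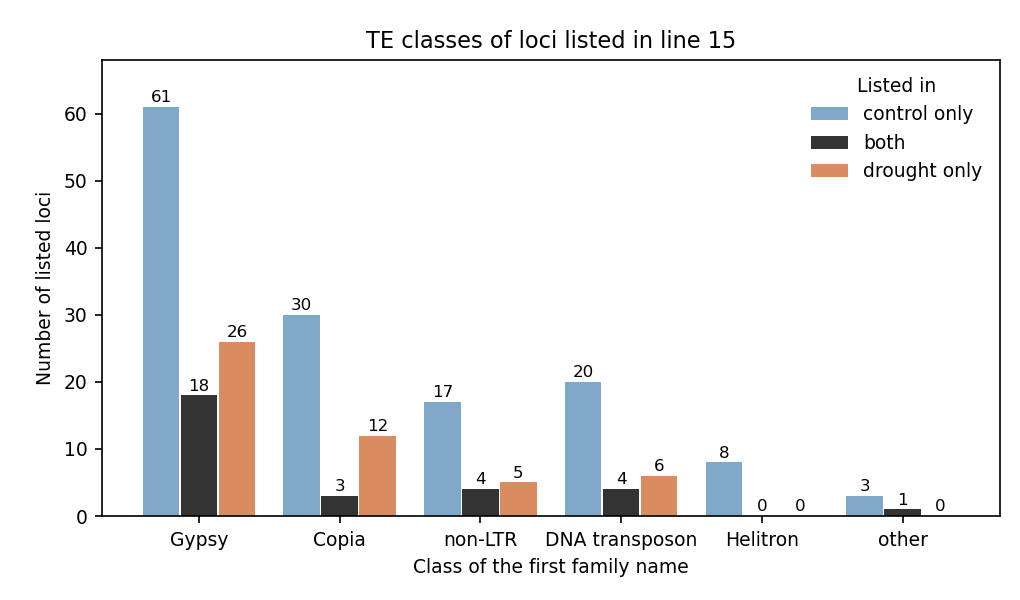
Number of line 15 loci (y) in each TE class (x, non-LTR being LINE and SINE elements), listed only in control (blue), in both lists (black) or only in drought (orange). Gypsy holds 61, 18 and 26 loci in that order, and Copia 30, 3 and 12.

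The loci in both lists were mainly Gypsy. Gypsy gave 18 of the 30, and 22.8% of its control loci (exact 95% interval 14.1 to 33.6) were also listed in drought. For Copia this was 3 of 33 (9.09%, 1.92 to 24.3), for DNA transposons 4 of 24 (16.7%, 4.74 to 37.4) and for LINE and SINE elements 4 of 21 (19%, 5.45 to 41.9). The intervals overlapped widely. Among Gypsy loci, names of an LTR made up 46 of 79 in control and 27 of 44 in drought, and names of an internal part, which encodes the proteins, made up the rest. Copia loci carried an LTR name at 16 of 33 and 8 of 15.

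Copia loci were shorter in drought, with a median of 156 bp against 315 bp in control. The longest Copia loci of control were unlisted in drought. Copia21-PTR_I-int on chromosome 8 (2643629 to 2647966, 4338 bp) had a depth value of 189 and a split-read value of 45, and Copia1-PTR_I-int on chromosome 3 (5805909 to 5808494, 2586 bp) had 218 and 147. The former was listed in no other library and the latter in both WT libraries. Copia's part of the listed length was accordingly 25.6% in control and 7.61% in drought, although its part of the loci was nearly equal.

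Counted by first family name, a coarser unit than the locus, the lists had more in common. Every shared locus also shares its name, so part of this follows from the unit. The control list held 62 names and the drought list 43, and 30 names were in both. That is 69.8% of the drought names and 48.4% of the control names. At 9 of the 30 shared names no locus was shared, so different copies of the same family were listed. Of the 49 drought-only loci, 34 carried a first name that the control list also held, and that list held 62 of the 75 names in either list.

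By the rule of 3 or more loci in a list and none in the other, 7 names were listed in control alone and none in drought alone. The control list was the longer one, and 82.2% of all its loci were unlisted in drought, so nothing particular to these names is read from the count. The largest was Gypsy-71_PTr-LTR, with 9 control loci of 120 to 598 bp and depth values from 4 to 105 (median 38). It was listed at 4 loci in each WT library and at 4 and 3 in line 23, so line 15 drought was the only library without it. Whether this differs between genotypes was not tested. The others were Copia5-PTR_LTR, DNA-3-1_PTr and Helitron-N3_PTr with 4 loci each, and Gypsy23-PTR_I-int, Helitron-N1_PTr and hAT-3_PTr with 3 each. The hAT superfamily, cut-and-paste DNA transposons, had 5 control loci and none in drought, against the 82.2% of all control loci that were unlisted there. Harbinger, another such superfamily, had none in control and 2 in drought, against the 62% of all drought loci that were unlisted in control. It also had 1 locus each in WT control, line 23 control and line 23 drought.

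The names with most loci changed places. SINE2-2_PTr, a short non-autonomous element, led the control list with 12 loci of depth value 9 to 171, and had 3 in drought. Gypsy-72_PTr-LTR led the drought list with 10 loci, against 7 in control, and 3 loci were shared. It was the name with most drought-only loci, 7 of the 49. ENSPM1_PT, a CACTA-type DNA transposon, had 6 control loci and 1 in drought. Copia-56_PTr-LTR had 6 and 4, POPGY2_LTR 2 and 4, and the LINE L1-2_PTr 3 and 3. Ogre elements, very large Gypsy retrotransposons, had 19 loci in control and 7 in drought, of which 6 were shared. Over all loci, 139 of 169 control loci (82.2%) were unlisted in drought, and 49 of 79 drought loci (62%) in control. Unlisted in drought were 10 of 12 SINE2-2_PTr, 5 of 6 ENSPM1_PT and 13 of 19 Ogre control loci. Nothing particular to these families is read from the counts.

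Copia-56_PTr-LTR was unusual in its lengths. Of its 9 line 15 loci, 8 on 6 chromosomes were exactly 131 bp long, 5 listed in control and 3 in drought. Their depth values lay between 3 and 66 and their split-read values between 4 and 12. No 131 bp locus was in both lists. The only shared locus of the name was 147 bp long.

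The loci with the highest depth values differed between the lists. In control, Gypsy23-PTR_I-int on chromosome 1 (44984628 to 44984848, 221 bp) had a depth value of 51684, or 23386 per 100 bp, and a split-read value of 1105. Depth covered all of the locus and split reads a fraction of 0.633. The locus was also listed in WT control, at a depth value of 49200 and a split-read value of 943. In line 23 control these were 36388 and 722, and no drought library listed the locus. A pair of further Gypsy23-PTR_I-int loci lay on its left. They spanned 44974374 to 44975801 and 44982256 to 44983760, had depth values of 79 and 106, and within line 15 were also listed only in control. All Gypsy23-PTR_I-int loci of line 15 thus lay side by side, and the signal was concentrated in the shortest of them.

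In drought the leading depth value, 24823, belonged to the 8194 bp locus of Gypsy-27_PTr-I-int at 8689906 to 8698099 of chromosome 13. Per 100 bp this was 303. Its split-read value was 6, and split reads covered a fraction of 0.0100. The locus was unlisted in line 15 control but listed in 3 of the 4 libraries of the other genotypes. High depth with few split reads was also the pattern of the SAT-1_PT locus on chromosome 11 (9097155 to 9103437, 6283 bp). The first name of that locus belongs to none of the TE classes used here, and its second name is a Gypsy internal part. Its depth value was 5202 in control and 9069 in drought, its split-read value 10 and 6, and its fraction covered by split reads 0.0189 and 0.0156.

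DNA-3-3_PTr, named as a DNA transposon family, gave the other very high depth values in drought. On chromosome 3 (12264531 to 12264753, 223 bp) the depth value was 38 in control and 6033 in drought, 159-fold higher. The split-read value of that locus was 17 in control and 5 in drought, and the fraction covered by depth 1.00 and 0.816. On chromosome 6 (10634066 to 10634172, 107 bp) the depth value was 5202 in drought, with a split-read value of 3, and the locus was unlisted in every other library. Per 100 bp these loci had the highest depth values of the drought list, 4862 on chromosome 6 and 2705 on chromosome 3. A further drought-only locus, DNA-3-2_PTr on chromosome 3 (12366569 to 12366821), had a depth value of 336 and a split-read value of 4. None of these loci had a split-read value above 5 in line 15 drought, whereas the chromosome 3 DNA-3-3_PTr locus had 4681 in line 23 drought, at a depth value of 1577.

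A few loci held most of the summed depth. The loci with a depth value of 1000 or more numbered 3 in control and 4 in drought and held 83.4% and 90.0% of the sum. The other 166 and 75 loci summed to 11530 and 4987, with medians of 29 and 32. Without the leading locus of each list, the sum was 17901 in control and 25291 in drought. The order of the summed values therefore depended on whether the leading locus was counted, whereas the median locus had a similar value in both lists.

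At the 30 loci in both lists, most depth values as deposited differed less than 2-fold. The depth value in drought was lower at 19 loci and higher at 11, with a median log2 ratio of -0.32 (order-statistic 95% interval -0.84 to 0.09, loci not being replicates). The range was -3.35 to 7.31, and 22 loci were within 2-fold. It was at least 2-fold lower at 7 loci (23.3%) and at least 2-fold higher at 1 (3.33%). In WT these shares were 10.5% and 15.8% of 38 loci, and in line 23 33.3% and 13.3% of 15. Divided by the summed depth of each list, the median turned to 0.15, with 15 loci higher and 15 lower, and 5 at least 2-fold lower and 5 at least 2-fold higher. Divided by the sum over loci with a depth value under 1000, 3 were at least 2-fold lower and 15 at least 2-fold higher. No direction over all shared loci, and no contrast with the other genotypes, is therefore claimed. Across these 30 loci, which share library and amplification, Spearman's rho of the depth values was 0.743 between the libraries.

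**Figure D4:**
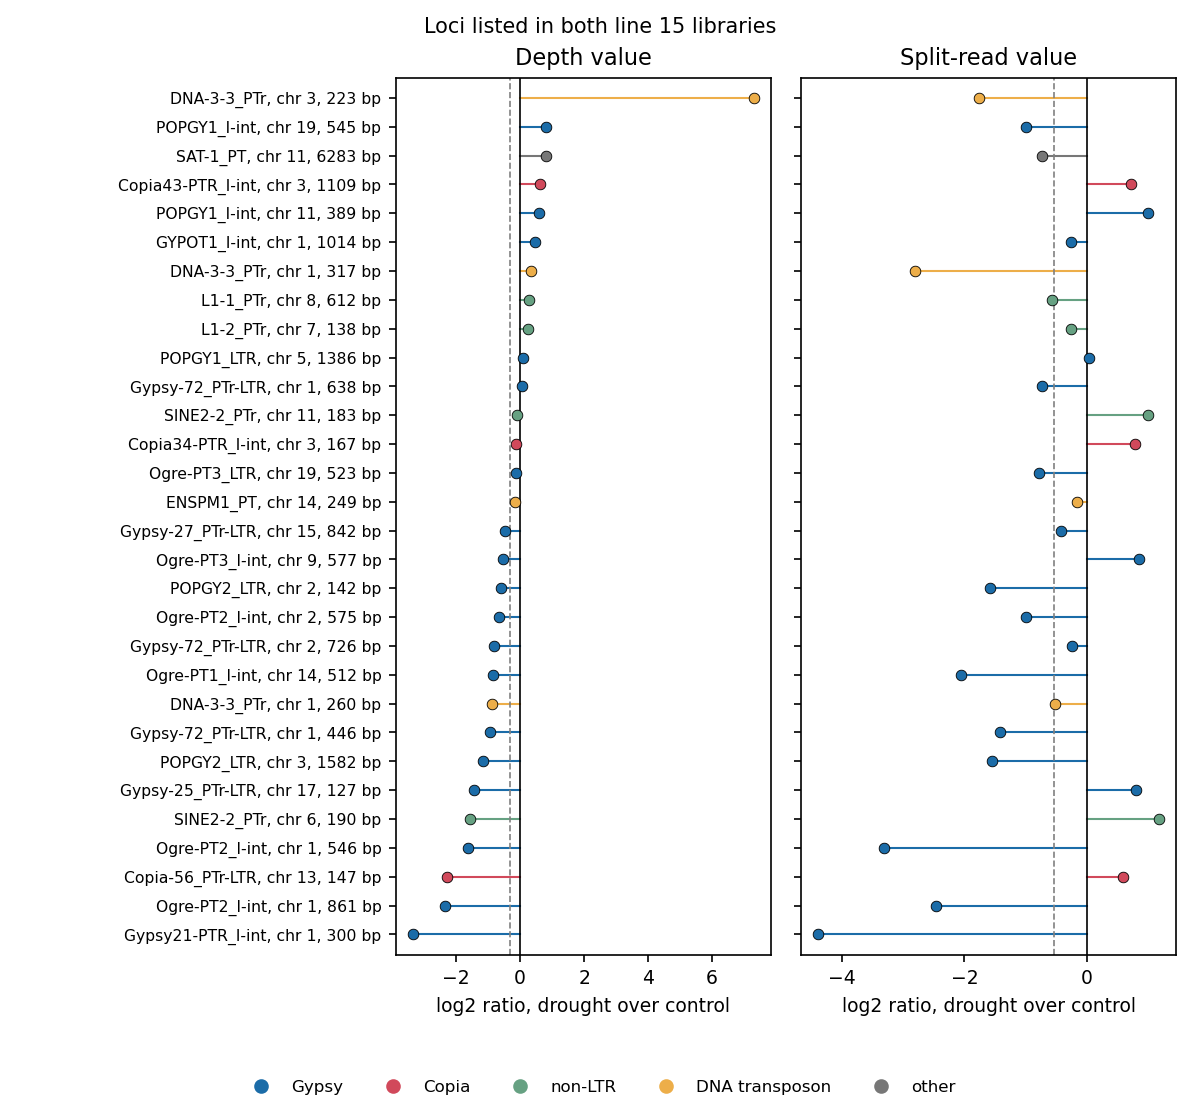
The log2 ratio, drought over control, of the depth value (left) and the split-read value (right) at the 30 loci in both line 15 lists, in the order of the depth ratio, with the first family name, chromosome and length of each locus. Points are coloured by class and dashed lines mark the medians, -0.32 and -0.54. The depth ratio of DNA-3-3_PTr on chromosome 3, 7.31, stands apart.

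Split-read values were lower in drought at 21 of the 30 loci and higher at 9, with a median log2 ratio of -0.54 (-1 to -0.16). They were at least 2-fold lower at 11 loci (36.7%) and at least 2-fold higher at 3 (10%). In WT the shares were 18.4% and 7.89%, and in line 23 40% and 13.3%. Divided by the summed split-read value of each list, this median turned to 0.41. As deposited, depth and split-read values differed in direction at many loci. Both were lower at 13 loci and both higher at 3, while depth was higher and split reads lower at 8, and the reverse held at 6. The fraction covered by split reads was lower in drought at 21 loci (median 0.549 in control and 0.434 in drought), and the fraction covered by depth was lower at 16, equal at 6 and higher at 8 (0.987 and 0.904).

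All 6 Ogre loci in both lists had a lower depth value in drought as deposited, with log2 ratios from -2.36 to -0.14, beside 19 of all 30 shared loci. This direction depended on the scaling. On percentile ranks 6 of 6 were lower, beside 24 of 30. On division by the summed depth 5 of 6 were lower, beside 15 of 30, and on division by the sum over loci under 1000, 2 of 6 were lower, beside 6 of 30. Ogre-PT2_I-int on chromosome 1 (41624029 to 41624889, 861 bp) had a depth value of 1169 in control and 228 in drought, and its split-read value was 919 and 167. A second Ogre-PT2_I-int locus of that chromosome (17789768 to 17790313, 546 bp) had depth values of 164 and 53 and split-read values of 80 and 8. The split-read ratio was thus lower than the depth ratio at both. Ogre-PT3_I-int on chromosome 9 (1751928 to 1752504) was the Ogre locus with more split reads in drought, 9 against 5, at depth values of 60 and 88.

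Other internal Gypsy parts went in different directions. The lowest ratio of all was at Gypsy21-PTR_I-int on chromosome 1 (46571040 to 46571339, 300 bp), a family whose name accompanies Ogre names at several loci. Its depth value was 255 in control and 25 in drought, 10.2-fold lower, and its split-read value 63 and 3. In contrast, both POPGY1_I-int loci had higher depth values in drought as deposited and on either division, and 1 of 2 on percentile ranks. Of all 30 shared loci, 11 were higher as deposited, 15 and 24 on the divisions by the sum and by the sum over loci under 1000, and 6 on ranks. The POPGY1_I-int locus on chromosome 19 (6885698 to 6886242) had 72 in control and 126 in drought, and the one on chromosome 11 (9760359 to 9760747) had 98 and 148. Their split-read values moved apart, from 12 to 6 and from 8 to 16. GYPOT1_I-int on chromosome 1 (36180667 to 36181680) gave depth values of 126 and 172 and split-read values of 50 and 42.

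As deposited, Gypsy LTR loci in both lists had lower or similar depth values, and 19 of all 30 shared loci were lower. Of the 30, 15 were lower on division by the summed depth and 6 on division by the sum over loci under 1000. Gypsy LTR loci were not compared as a group under those scalings, so no direction is claimed for them. POPGY2_LTR on chromosome 3 (2902731 to 2904312, 1582 bp) had a depth value of 649 in control and 292 in drought, with split-read values of 201 and 69. Gypsy-27_PTr-LTR on chromosome 15 (5951514 to 5952355) had 300 and 214, with split-read values of 4 and 3. Gypsy-25_PTr-LTR on chromosome 17 (6244290 to 6244416, 127 bp) had 11 and 4, with 4 and 7 split reads, values near the lowest that were listed.

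The 3 Copia loci in both lists had more split reads in drought, as deposited, on division by the sum and on ranks, beside 9, 19 and 8 of all 30 shared loci. Their depth values went in different directions. Copia43-PTR_I-int on chromosome 3 (7814725 to 7815833) had split-read values of 92 in control and 152 in drought, above its depth values of 79 and 122. Copia-56_PTr-LTR on chromosome 13 (11346946 to 11347092) had split-read values of 4 and 6 and depth values of 39 and 8. Copia34-PTR_I-int on chromosome 3 (5805516 to 5805682) had split-read values of 18 and 31 and depth values of 24 and 22. It lay 226 bp from the long Copia1-PTR_I-int locus that was unlisted in drought.

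Both SINE loci in both lists had more split reads in drought as deposited, on division by the sum and on ranks, beside 9, 19 and 8 of all 30 shared loci. Their depth values were lower as deposited and on ranks, beside 19 and 24 of 30. On division by the sum and by the sum over loci under 1000, 1 of 2 was lower, beside 15 and 6 of 30. The SINE2-2_PTr locus of chromosome 6 (2112611 to 2112800) gave depth values of 171 in control and 58 in drought but split-read values of 15 and 34, the highest split-read ratio of the shared loci (log2 1.18). The chromosome 11 locus (2332606 to 2332788) gave depth values of 28 and 26 and split-read values of 5 and 10. The 2 LINE loci had higher depth values in drought under every scaling. Of all 30 shared loci, 11 were higher as deposited, 15 on division by the sum, 24 on division by the sum over loci under 1000 and 6 on ranks. Split-read values of the LINE loci were lower as deposited and on ranks, beside 21 and 22 of 30, and higher on division by the sum, beside 19. L1-1_PTr on chromosome 8 (15378192 to 15378803) gave 187 and 225 for depth and 173 and 117 for split reads.

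Of the DNA transposons in both lists, DNA-3-3_PTr on chromosome 1 (24681274 to 24681590, 317 bp) gave depth values of 258 in control and 324 in drought, with split-read values of 21 and 3. The fraction of that locus covered by split reads was 0.486 in control and 0.123 in drought. The other shared DNA-3-3_PTr locus of chromosome 1 (30005278 to 30005537) had lower depth, 84 in control and 46 in drought, with split-read values of 10 and 7. Depth was thus higher at 2 of 3 DNA-3-3_PTr loci as deposited, on division by the sum and on ranks, beside 11, 15 and 6 of all 30. On division by the sum over loci under 1000 it was higher at 3 of 3, beside 24 of 30. All 3 DNA-3-3_PTr loci in both lists had fewer split reads in drought as deposited, beside 21 of all 30 shared loci, and 2 of 3 on division by the summed split-read value, beside 11 of 30. ENSPM1_PT on chromosome 14 (4297763 to 4298011) was nearly level, at 114 and 102 with split-read values of 28 and 25.

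Among loci listed only in control, those with the highest depth value after Gypsy23-PTR_I-int were Gypsy, CACTA and Ogre elements. Gypsy-78_PTr-I-int on chromosome 1 (47450642 to 47451752, 1111 bp) had a depth value of 861 and a split-read value of 74. It was listed in all 4 libraries of the other genotypes, at 563 and 415 in WT and 680 and 343 in line 23, so line 15 drought was the only library without it. One more locus had that pattern, Ogre-PT2_I-int on chromosome 11 (12996131 to 12996687), at 57 in line 15 control and 49 to 111 elsewhere, and was named after its values were seen. Gypsy-26_PTr-LTR on chromosome 6 (957048 to 959077, 2030 bp) had a depth value of 661 and was listed in no other library.

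ENSPM1_PT gave a pair of the strongest control-only loci on chromosome 5. The locus at 1052376 to 1052600 had a depth value of 412 and a split-read value of 9, and the locus at 11233521 to 11233805 had 312 and 8. Ogre-PT1_LTR on the same chromosome (24658596 to 24659200) had 304 and 5. All 3 combined a high depth value with few split reads.

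Among drought-only loci, the highest depth values after these leading ones were at Gypsy LTRs. Gypsy-27_PTr-LTR on chromosome 12 (7588649 to 7588908) had a depth value of 212, Gypsy-29_PTr-LTR on chromosome 4 (15931405 to 15932394) 187 and Gypsy-72_PTr-LTR on chromosome 10 (4360000 to 4360667) 154. Their split-read values were between 4 and 6. The first was also listed in both WT libraries and the second in both other control libraries, whereas the third was in no other library.

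Gypsy-72_PTr-LTR supplied 3 of the 4 drought-only loci with most split reads, and L1-1_PTr the other. At chromosome 4 (20672764 to 20673242, 479 bp) the split-read value was 1060 and the depth value 80. This was the highest split-read value of the drought list, close to the 1105 of Gypsy23-PTR_I-int in control, and the locus was listed in no other library. Next came L1-1_PTr on chromosome 7 (7370421 to 7371011), with a split-read value of 68 and a depth value of 115, which was listed in 3 of the other libraries. The other Gypsy-72_PTr-LTR loci followed. At chromosome 11 (11626981 to 11627318) the split-read value was 46 and the depth value 130, and at chromosome 12 (12871435 to 12872019) they were 44 and 22.

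A split-read value above the depth value was found at 11 loci of each list, 6.51% of control and 13.9% of drought loci. In drought the largest excess was 980, at the Gypsy-72_PTr-LTR locus on chromosome 4. In control it was 39, at DNA-3-1_PTr on chromosome 1 (980459 to 980635), with a split-read value of 71 and a depth value of 32. Next in control came Gypsy21-PTR_I-int on chromosome 6 (12230391 to 12230909), at 67 and 43, and L1-1_PTr on chromosome 13 (11310497 to 11310907), at 28 and 8. At these loci the values cannot both be counts of reads in which split reads are a part of the depth.

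Median covered fractions were similar in the lists, although at the shared loci both medians were lower in drought. The median fraction covered by depth was 0.976 in control and 0.943 in drought, and 67 loci (39.6%) and 26 (32.9%) were covered in full. The median fraction covered by split reads was 0.449 and 0.468. Split reads covered the whole locus at 16 control loci (9.47%) and 3 drought loci (3.80%). A fraction covered by depth under 0.85 was found at 27 control loci (16.0%) and 20 drought loci (25.3%). Locus lengths were alike too, with medians of 256 and 260 bp, but 13 control loci and 6 drought loci reached 1000 bp.

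Loci of both lists lay on all 19 chromosomes. Chromosome 1 held most in each, 36 in control (21.3%) and 11 in drought (13.9%), including 8 of the 30 shared loci. Chromosome lengths were not used here, so these counts carry no density. Neighbouring listed loci within 10000 bp of each other formed 7 pairs in control and 3 in drought. Of the 7, 5 were on chromosome 1 among Gypsy23, Gypsy21 and Ogre internal parts. The drought pairs were L1-2_PTr beside Gypsy-76_PTr-LTR on chromosome 8, Copia53-PTR_LTR beside Copia-93_PTr-LTR on chromosome 19, and a pair of Copia-56_PTr-LTR loci on chromosome 13. Of the 49 drought-only loci, 1 lay within 10000 bp of a control locus, and the median distance was 968357 bp, so few drought-only loci lay beside a control locus.

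Loci in both line 15 lists were also listed more often in the other genotypes than loci in only one. Of the 30 loci in both lists, 27 (90.0%, exact 95% interval 73.5 to 97.9) were also listed in at least 1 of the 4 WT and line 23 libraries. This was so for 46 of the 139 control-only loci (33.1%, 25.4 to 41.6) and 15 of the 49 drought-only loci (30.6%, 18.3 to 45.4). The drought-only loci were listed about as often in WT control as in WT drought. They were found at 11 of 49 in both WT control and WT drought, at 5 in line 23 control and at 3 in line 23 drought. Of the 15 found elsewhere, 4 were in drought libraries alone, 3 in control libraries alone and 8 in both kinds. The control-only loci were listed at 28, 22, 24 and 4 of 139 in the same order, and of the 46 found elsewhere 23 were in control libraries alone, 4 in drought libraries alone and 19 in both. These counts also depend on the length of each list. The shared loci were longer and had higher depth values than the others. They were also chosen for being listed in both line 15 libraries, so nothing further is read from their higher share.

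**Figure D5:**
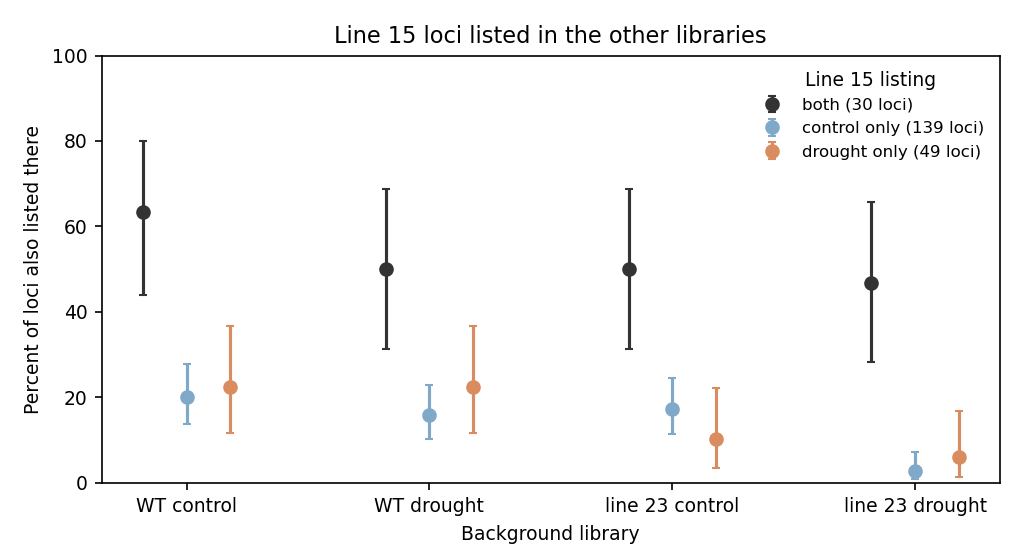
Percent of line 15 loci (y) that were also listed in each of the 4 libraries of the other genotypes (x), for loci in both line 15 lists (black), only in control (blue) and only in drought (orange). Points are shares and bars exact 95% Clopper-Pearson intervals, and loci in both lists were listed in 46.7% to 63.3% of cases, above both other sets in each library.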

How the data were processed

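Per the labels' protocols, CTAB extracts were enriched for extrachromosomal DNA by amplification, and Nextera XT libraries were read on an Illumina MiSeq (2 reads of 250 bp). Per the submitters' processing notes, Bowtie2 was used. The sources used here do not give its version, the genome build, the counting tool or the filters. The deposited sheets hold, per the file headers, a depth signal and a split-read signal per locus, as whole numbers that the authors did not scale as far as the headers say, and the covered fraction of each, headed as a percent. Whether the signals are counts is not stated, so no count model was fitted. Each list was assigned to the sample titled like its sheet. Starts were taken as counted from 0, because the stated length matched the end minus the start at every one of 665 entries, and are printed counted from 1.

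Loci were matched by identical coordinates and classed by their first family name (Gypsy with Ogre, POPGY and GYPOT, Copia, LINE and SINE, DNA transposon, Helitron, other). In line 15, 11 control and 7 drought loci had names of more than 1 class. Loci named with values were those with the 10 highest depth values of each list, the 6 highest and 6 lowest depth ratios and the 4 highest and 4 lowest split-read ratios of shared loci, the 6 highest depth and 4 highest split-read values of unshared loci on each side, the 3 longest, and the 3 largest excesses of split reads, 39 loci in all. A few others are named as members of a group described. These rules, the alternatives and the loci were chosen with earlier results of these data known. With 1 library per group, no test was run. Intervals are exact 95% Poisson, Clopper-Pearson or order-statistic intervals and cover counting error only. Python 3.11.15, pandas 2.3.3 and SciPy 1.17.1 were used, and the matching and medians were tested on simulated data.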

Additional observations from a re-analysis of the deposited data

Results flagged for a closer look

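In line 15 the difference between drought and control pointed the opposite way from another genotype at the following values. None of these differences was tested, and each genotype has 1 pair of libraries. The Gypsy share of loci was 8.95 percentage points higher in drought in line 15 and 12.7 higher in line 23, with a change of -0.998 in WT. The Copia share had a change of -0.54 in line 15, -17.5 in line 23 and 4.84 in WT.

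At named loci the log2 depth ratio, drought over control, was compared as deposited, in each genotype that listed the locus in both libraries. The signs below hold for deposited values only. The summed depth of a list fell by unequal amounts from control to drought. For WT it fell from 92011 to 30529, for line 15 from 69585 to 50114, for line 23 from 44510 to 22388. Dividing by these sums would raise every ratio, by a different amount per genotype. Whether the opposite signs remain after that division was not tested. The widest contrast was at Gypsy21-PTR_I-int on chromosome 1 (start 46571040), with -3.35 in line 15 and 2.99 in line 23. Ogre-PT2_I-int on chromosome 1 (start 41624029) had -2.36 in line 15, -0.30 in WT and 0.83 in line 23. SINE2-2_PTr on chromosome 6 (start 2112611) had -1.56 in line 15, 0.82 in WT and -0.74 in line 23. POPGY1_I-int had 0.81 in line 15 and -0.19 in line 23 on chromosome 19 (start 6885698), and 0.59 in line 15 and -0.55 in WT on chromosome 11 (start 9760359). GYPOT1_I-int on chromosome 1 (start 36180667) had 0.45 in line 15, 1.59 in WT and -0.22 in line 23. L1-1_PTr on chromosome 8 (start 15378192) had 0.27 in line 15, against -0.60 in WT and -1.12 in line 23. DNA-3-3_PTr on chromosome 1 (start 24681274) had 0.33 in line 15 and -0.0056 in line 23. In line 23 its depth values were nearly level, at 257 in control and 256 in drought, so only the sign differed.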

How the results depend on the processing

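Fewer loci were listed in drought than in control under every filter run. The numbers were 110 and 53 at a depth value of at least 20, 95 and 37 at a covered fraction of at least 0.95, 102 and 49 at a length of at least 200 bp, and 166 and 77 after merging loci within 1000 bp. Shared loci numbered 8 at a covered fraction of at least 0.95 in both libraries, or 21.6% of the drought list, and between 23 and 30 under the other settings. The Gypsy share in control was 85.8% when weighted by depth value. In drought it was 67.5% when weighted by length. The Copia share was 2.29% in control and 0.81% in drought when weighted by depth value, and 7.61% in drought when weighted by length. Weighted by depth value, the Gypsy share was thus lower in drought (55.7%), the opposite of the share by loci.

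The median log2 depth ratio of shared loci turned from -0.32 to 0.15 when each value was divided by its library's sum, and to 0.89 on division by the sum over loci with a depth value under 1000, a setting chosen after the data were seen. As a difference of percentile ranks it was -6.55 points. The median split-read ratio turned from -0.54 to 0.41 on division by the sum and was -5.59 points on ranks. Directions by family group under each scaling, also compared after the data were seen, stand beside the groups. The sums rest on a few loci and on which loci were listed, and the cause was not tested. The median length of control-only loci was 308 bp at a depth value of at least 20 and 191 bp at a covered fraction of at least 0.95. No paired analysis was possible because each group has 1 library.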

Other observations

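The depth value 5202 occurs in both line 15 lists at unrelated loci, SAT-1_PT on chromosome 11 in control and DNA-3-3_PTr on chromosome 6 in drought. The Ogre-PT2_I-int locus that starts at 41624029 of chromosome 1 had a split-read value of the same order as its depth value in all 6 libraries. It was 919 beside a depth value of 1169 in line 15 control and 167 beside 228 in line 15 drought. In line 23 the values were 1133 beside 1019 in control and 2110 beside 1809 in drought, and in WT 489 beside 464 and 273 beside 376.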
